A study of Mus musculus with 12 samples.

Results

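The comparison described here set lipid-laden microglia (LL-MG) against microglia without lipid load (MG), sorted from mouse brain tumours and measured by ATAC-seq. It holds 6 of the 12 libraries of the series, 3 LL-MG and 3 MG. Membership was taken from the names that head the columns of the count table (04, 08 and 12 for LL-MG 1, 2 and 3, and 03, 07 and 11 for MG 1, 2 and 3), not from the sample titles. In the LL-MG group, as in the MG group, the cells came from brain tumours with the genotype Ink4a/ArfKO and PDGFB, so both groups share the deletion, the oncogene and the tumour. How PDGFB was delivered, the age of the mice and the gate that separated lipid-laden from other cells are details that the sources used here do not give. The other 6 libraries are lipid-laden (LL-MDM) and non-laden (MDM) monocyte-derived macrophages of the same genotype, 3 of each, and they entered the model as 2 further groups. In ATAC-seq the transposase Tn5 cuts accessible DNA, and the values are read-based counts in 117835 regions of the mm10 genome.

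Microglia are the resident macrophages of the brain. They clear debris, including myelin, which is rich in cholesterol, and the cholesterol they take up is handled in lysosomes, stored as esters in lipid droplets or exported to apolipoproteins by ABC transporters. Oxysterols made from that cholesterol activate the liver X receptors (LXR), which switch on the exporter and apolipoprotein genes, and fatty acids activate the PPAR receptors, which switch on fatty acid oxidation. Microglia that fill with lipid have been described in ageing, in demyelination and in brain tumours.

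Region totals were 2268884, 2150072 and 2764146 counts in LL-MG 1, 2 and 3, and 2753453, 6872724 and 4399328 in MG 1, 2 and 3. Levels below are CPM, counts scaled to 1000000 per library after TMM, given in the order of libraries 1, 2 and 3 of each group. Differences are log2 fold changes of LL-MG over MG ± standard error from edgeR's quasi-likelihood test over all 12 libraries, called at a Benjamini-Hochberg adjusted p under 0.05. The first principal component of the 6 microglia libraries held 52.1% of the variance and placed LL-MG 1, 2 and 3 at -99.0, -93.6 and -71.9, MG 1 at -16.5, MG 3 at 104 and MG 2 at 177. Along it the MG libraries stood in the order of their region totals. MG 1 lay nearer to the LL-MG libraries than to MG 2 and MG 3, so the comparison was also made against MG 1 alone, a fit that takes this lone library to vary as much as the 3 other groups do. For 8 of the 12 samples, among them MG 1, 2 and 3 and LL-MG 2, the title names another group than the column does, and every direction below rests on the column names. With groups taken from the titles instead, 50 of the named results changed sign. Those groups take MDM 2, LL-MDM 1 and LL-MDM 3 as microglia without lipid load, and MG 2, LL-MG 1 and LL-MG 3 as lipid-laden. Sall1, given below, was lower in each monocyte-derived column than in any microglia column. These sign changes thus mix lineage with lipid load. The titles also carry a number after the letters mn, which the labels do not explain. Going by the titles of the same samples it was 546, 545 and 545 for LL-MG 1, 2 and 3 and 547, 547 and 546 for MG 1, 2 and 3, so that 546 alone occurs in both groups, and whether it belongs to the libraries of these columns is as uncertain as the title's group. If it marks an animal of the sample so titled, libraries of a group share animals. Animal and lipid load can then hardly be told apart. Taken in sample order, however, the titles run through the 4 groups in the order of the column numbers. By that order LL-MG 1 and MG 1 would share a number, as would LL-MG 2 and MG 2, and LL-MG 3 and MG 3. A block over these numbered sets called 8702 regions and 2585 gene loci in edgeR. Which reading is right is not known. A fit with the number from the same sample's title as a block was added after the data had been seen. It called 0 regions and 0 gene loci in LL-MG against MG in edgeR (11469 and 2986 at an unadjusted p under 0.05). The 98 named results that lost their call kept their direction. With 546 alone in both groups, that block leaves little to set LL-MG against MG. Its loss of calls thus cannot decide between these readings. The p-values below speak of the scatter among these libraries only, and some of that may be technical. In bulk libraries a lower share of a cell type and a lower accessibility in each cell cannot be told apart.

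The label was checked against microglial markers. The summed level of the 20 microglia identity loci was 1665, 1775 and 1665 CPM in LL-MG 1, 2 and 3 and 1683, 1231 and 1434 CPM in MG 1, 2 and 3, against 1242 to 1307 CPM in the LL-MDM libraries. In the MDM libraries it was 1208 to 1271 CPM, so that MG 2 lay inside the range of the monocyte-derived cells. Sall1, the transcription factor that keeps microglial identity, was at 63.4, 85.005 and 64.6 CPM in LL-MG, against 71.4, 37.7 and 50.3 CPM in MG. In monocyte-derived cells it had 11.5, 9.42 and 5.94 CPM in LL-MDM and 0.830, 1.02 and 0.471 CPM in MDM, below each of the 6 microglia libraries. The difference between LL-MG and MG did not pass the test (0.45 ± 0.20, adjusted p = 0.122 in edgeR), and LL-MG and MG overlapped. Without MG 1 it passed (0.000545). The myelin gene Mog, which would mark oligodendrocyte chromatin, stayed under the count filter, at 1.37 to 2.42 CPM in LL-MG and 2.04 to 3.79 CPM in MG. Mog does not stand for its list. The 10 oligodendrocyte marker loci summed to 395, 392 and 400 CPM in LL-MG 1, 2 and 3. In MG 1, 2 and 3 the sum was 394, 382 and 372 CPM. Some glial markers were called higher in LL-MG and are given below, so glial chromatin is not shown to be absent. The files hold no measure of lipid content, so the lipid label itself could not be checked.

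Of 77737 tested regions, 3276 were more accessible in LL-MG (4.21%) and 6226 less accessible (8.01%). Of 15548 tested gene loci, each the sum of the regions in a gene's span or within 5 kb of it, 1603 were higher in LL-MG (10.3%) and 1241 lower (7.98%). Against MG 1 alone the same model called 42 of 80227 regions (0.0524%, 10 higher and 32 lower) and 16 of 15585 gene loci (0.103%, 12 higher and 4 lower). In a split added after the values had been seen, MG 2 as the only MG library gave 26909 regions and 6397 loci, and MG 3 alone 9325 and 2802, so the number of calls moved with the MG library used. Region totals ran in the same order, at 6872724 counts in MG 2, 4399328 in MG 3 and 2753453 in MG 1. Depth and library can thus not be told apart in these numbers of calls. With all libraries thinned to the smallest total, 2514 regions and 1233 loci were called against the 3 MG libraries. With 1 library left out at a time, the regions called were 3869, 4129 and 4263 without LL-MG 1, 2 or 3, and 22310, 3029 and 6382 without MG 1, 2 or 3. The gene loci were 998, 1114 and 1248 without LL-MG 1, 2 or 3, and 5911, 1045 and 1395 without MG 1, 2 or 3. Below, libraries are likewise left out singly, and values in brackets after them are the adjusted p in edgeR's fit without each. All these fits keep the LL-MDM and MDM libraries, which share in the estimate of the spread. With the 6 microglia libraries only, edgeR called 1851 of 52693 regions and 0 of 14882 loci (13046 and 4196 at an unadjusted p under 0.05). The larger direction among regions turned with the scaling and the tool: 34.5% of calls were higher in LL-MG with TMM, 48% with total counts and 53.8% in limma-voom. Among gene loci the share was 56.4%, 44.5% and 67.7%. Total counts moved the median log2 fold change of all tested regions to 0.11, against 0.00 with TMM.

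**Figure D1:**
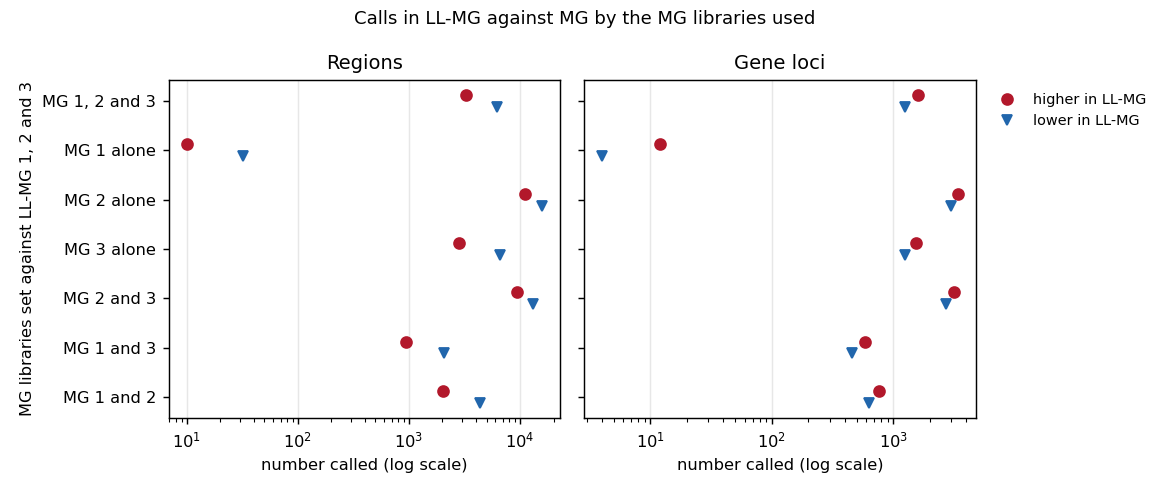
Number of regions (left) and gene loci (right) called in LL-MG against MG (horizontal, log scale) by which MG libraries were set against LL-MG 1, 2 and 3. Red circles are features higher in LL-MG and blue triangles features lower in LL-MG; with MG 1 alone 10 regions were higher and 32 lower, against 3276 and 6226 with all 3 MG libraries.

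Where a region was lower in LL-MG, MG 1 usually sat between the LL-MG libraries and the other MG libraries. The median level of the 6226 lower regions was 5.21 CPM in LL-MG, against 7.78 CPM in MG 1, 23.8 CPM in MG 2 and 15.4 CPM in MG 3. In 72.8% of them MG 1 was nearer to the LL-MG mean than to the mean of MG 2 and MG 3, and their median log2 fold change of -1.26 became -0.42 against MG 1 alone. The 3276 higher regions had a median of 14.9 CPM in LL-MG, against 9.64, 6.35 and 7.80 CPM in MG 1, 2 and 3. Among these MG 1 was nearer to LL-MG in 41.4%, and the median log2 fold change was 0.93 against all 3 MG libraries and 0.59 against MG 1 alone. The identifiers of the regions name the groups in which they were found, and 29 of the 42 regions called against MG 1 were named for MG and not for LL-MG. Of all tested regions 15026 (19.3%) were so named. The identifiers go back to these same groups, so they are no independent check of a difference between them. The LL-MG and MG libraries did not overlap in 88.7% of the higher and 75.4% of the lower regions, against 24% of all tested regions, and in 87.2% of the higher and 77% of the lower loci, against 30.1% of all tested loci.

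Eligible for the closest description were the 40 regions (8 higher, 32 lower) and 16 gene loci called in the same direction against all 3 MG libraries and against MG 1 alone. Against MG 1 alone neither DESeq2 nor limma-voom called a region higher in LL-MG (1 and 8 regions called, all lower, with 3042 and 4954 in either direction at an unadjusted p under 0.05), so the higher regions described below rest on edgeR in that fit. Since the second fit reuses the LL-MG libraries and MG 1, it is a narrower comparison and not an independent one. A region or locus named from both fits had also to show no overlap between the LL-MG and MG libraries. Where a lack of overlap is given for these, it follows from that rule and adds no support. The region with the smallest p among those higher in LL-MG lay inside Stk40, a pseudokinase gene, at chr4:126137763-126138141. It had 22.2, 17.9 and 21.0 CPM in LL-MG, against 6.67, 5.49 and 4.39 CPM in MG. Every LL-MG library was above every MG library (1.91 ± 0.24, adjusted p = 0.000169 in edgeR; 1.61 against MG 1, adjusted p = 0.0136). The next lay inside Nr1h3, the gene of LXR alpha, the oxysterol-sensing receptor that switches on cholesterol export, at chr2:91196722-91197250, 1606 bp from the nearest annotated start. It had 38.5, 38.1 and 34.8 CPM in LL-MG, against 17.4, 12.9 and 18.8 CPM in MG, again with no overlap (1.21 ± 0.17, adjusted p = 0.000441 in edgeR; 1.08 against MG 1, adjusted p = 0.0198). In monocyte-derived macrophages the same region was open with and without lipid load, at 54.1, 56.6 and 56.2 CPM in LL-MDM and 55.9, 47.3 and 61.7 CPM in MDM (0.03, adjusted p = 0.889 in edgeR). The lipid-load difference differed between the lineages by 1.17 ± 0.21 (adjusted p = 0.000594 in edgeR's interaction test, and under 0.05 without any 1 microglia library). The Nr1h3 region stood in LL-MG closer to its level in MDM than it did in MG. It was chosen for its LL-MG over MG difference, which is a part of the interaction.

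The other named higher regions lay near Rab7 and inside Man2a1, Ifitm10 and Atp2a2. A region 11671 bp from Rab7, the small GTPase of late endosomes, at chr6:88056941-88057299, had 19.5, 18.8 and 19.96 CPM in LL-MG, against 3.71, 7.72 and 11.2 CPM in MG (1.30 ± 0.25, adjusted p = 0.0017 in edgeR). Against MG 1 alone its difference was 2.38, larger than against the 3 MG libraries together. It was also higher in LL-MDM, at 38.1, 36.0 and 35.3 CPM, against 9.57, 11.2 and 14.4 CPM in MDM. A region in Man2a1, a Golgi mannosidase of N-glycan processing, at chr17:64616284-64616570, had 27.6, 18.8 and 33.4 CPM in LL-MG, against 9.64, 10.8 and 13.7 CPM in MG (1.23 ± 0.21, adjusted p = 0.000876 in edgeR). It too was higher in LL-MDM, at 26.6, 23.6 and 26.7 CPM, against 7.67, 8.64 and 9.57 CPM in MDM. A region in Ifitm10, of the interferon-induced transmembrane family, at chr7:142362878-142363418, had 34.8, 30.6 and 28.3 CPM in LL-MG, against 14.5, 8.92 and 14.4 CPM in MG (1.35 ± 0.21, adjusted p = 0.000669 in edgeR). In Atp2a2, the calcium pump of the endoplasmic reticulum, the region at chr5:122482845-122482996 had 4.98, 5.64 and 5.81 CPM in LL-MG, against 0, 2.57 and 1.71 CPM in MG (1.68 ± 0.45, adjusted p = 0.0158 in edgeR). MG 1 had no count there, so that LL-MG was at least 4.94-fold higher when MG 1 is set to a floor of 3 counts, and the call was lost without LL-MG 2 (adjusted p = 0.0574) and without LL-MG 3 (0.0618). Among the 6 named higher regions MG 1 was the lowest MG library at Man2a1, Rab7 and Atp2a2, and MG 2 or MG 3 at Stk40, Nr1h3 and Ifitm10. These 6 regions did not share 1 order of the MG libraries, and a region had to differ from MG 1 to be among them.

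The 32 regions lower in both fits were close to empty in LL-MG. Their median level was 1.36, 1.41 and 1.27 CPM in LL-MG 1, 2 and 3, against 9.64, 64.9 and 34.1 CPM in MG 1, 2 and 3. The MG libraries kept nearly one order and ratio across these regions. In 30 of the 32, MG 2 was above MG 3 and MG 3 above MG 1. The median ratio of MG 2 to MG 1 was 6.42 (quartiles 5.22 and 7.89), of MG 3 to MG 1 of 3.48 (2.96 and 4.03) and of MG 2 to MG 3 of 1.88 (1.72 and 2.01). These ratios were computed after the values had been seen and describe regions that were chosen for their level in MG. A region near 0 in LL-MG could be called in the lower direction only. The order of MG 2 over MG 3 over MG 1 is also that of their region totals, and the part of depth was not tested. The region near Car8, 32214 bp from that carbonic anhydrase-related gene at chr4:8271255-8271741, had 0, 0.470 and 0 CPM in LL-MG, against 11.5, 92.1 and 46.1 CPM in MG. The raw counts were 1 over the 3 LL-MG libraries and 757 over the 3 MG libraries, which makes LL-MG 425-fold lower over pooled counts (exact 95% binomial interval 76.1 to 16816, for counting error only, since amplified reads are not independent molecules) and 81.5-fold lower than MG 1 (13.6 to 3322). The adjusted p in edgeR was 0.00897, or 0.055 without LL-MG 2. In Zfp704, a zinc finger gene, the region at chr3:9581168-9581540 had no count in any LL-MG library, against 4.82, 26.2 and 19.3 CPM in MG. It was at least 45.9-fold lower with a floor of 3 counts over the LL-MG group. It was at least 11.4-fold lower than MG 1 (adjusted p = 0.00596 in edgeR). In Epg5, a tethering factor of autophagosomes, the region at chr18:78021205-78021620 held 1 count over the LL-MG libraries and 159 over the MG libraries, 89.3-fold lower (15.8 to 3549; adjusted p = 0.000669 in edgeR).

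Further lower regions lay in Tbx21 and around Gata2. In Tbx21, the gene of the lymphocyte transcription factor T-bet, the region at chr11:97103713-97104000 had 1.36, 1.41 and 1.09 CPM in LL-MG, against 8.90, 40.5 and 21.7 CPM in MG. The groups did not overlap (-4.27 ± 0.62, adjusted p = 0.00245 in edgeR; -2.79 against MG 1, adjusted p = 0.0112). At chr6:88230270-88230864, 7014 bp from the chaperone gene Dnajb8 and 23238 bp from Gata2, the transcription factor of mast cells and basophils, there were 2.26, 1.41 and 1.81 CPM in LL-MG, against 13.3, 102 and 49.3 CPM in MG (-4.94 ± 0.90, adjusted p = 0.0127 in edgeR). This call rested on all 3 LL-MG libraries: the adjusted p was 0.0526, 0.0541 and 0.0544 without LL-MG 1, 2 or 3. A further pair of regions around Gata2 was lower in both fits. That at chr6:88116740-88117283 had 1.81, 0.470 and 2.54 CPM in LL-MG, against 9.64, 81.8 and 39.3 CPM in MG. That at chr6:88252143-88252754 had 0.905, 0 and 0.726 CPM in LL-MG, against 8.16, 94.5 and 49.999 CPM in MG. With 0, 1.53 and 0.342 CPM in LL-MDM and 0.146, 0.706 and 0.171 CPM in MDM, it passed the count filter through MG. It could thus be called in the lower direction only. The adjusted p was above the threshold without LL-MG 1, LL-MG 2 or LL-MG 3 (0.0612 to 0.0701) for the first and above it without LL-MG 1, LL-MG 2, LL-MG 3 or MG 2 (0.0538 to 0.0709) for the other. Of the 29 tested regions within 100 kb of Gata2, 11 were lower and 0 higher against all 3 MG libraries, and 3 were lower against MG 1. Over all tested regions 8.01% were lower and 4.21% higher against the 3 MG libraries. The region 320797 bp from Runx1, a haematopoietic transcription factor gene, at chr16:93146871-93147316, had 0.452, 3.76 and 2.54 CPM in LL-MG, against 12.2, 64.0 and 36.1 CPM in MG (-4.10 ± 0.76, adjusted p = 0.0126 in edgeR). Near Noxa1, an activator of NADPH oxidase, the region at chr2:25111265-25111611, 16060 bp from the gene, had 0.905, 2.35 and 1.45 CPM in LL-MG, against 9.64, 53.7 and 26.8 CPM in MG (-4.32 ± 0.74, adjusted p = 0.00806 in edgeR). In Dbnl, an actin-binding adaptor gene, the order differed: the region at chr11:5789995-5790216 had 2.71, 1.88 and 0.363 CPM in LL-MG, against 7.78, 7.38 and 3.41 CPM in MG, with MG 1 the highest library (-1.96 ± 0.45, adjusted p = 0.0056 in edgeR, 0.0815 without LL-MG 3). It was also lower in LL-MDM, at 2.66, 3.06 and 1.71 CPM, against 12.9, 11.8 and 12.99 CPM in MDM. The remaining named regions lay 44791 bp from Tns3 (chr11:8709549-8709913; 2 counts over the LL-MG libraries and 193 over the MG libraries, 54.2-fold lower, 14.8 to 451) and in the predicted gene Gm46963 (chr6:86609277-86609637; -3.85 ± 0.69, adjusted p = 0.0105 in edgeR).

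**Figure D2:**
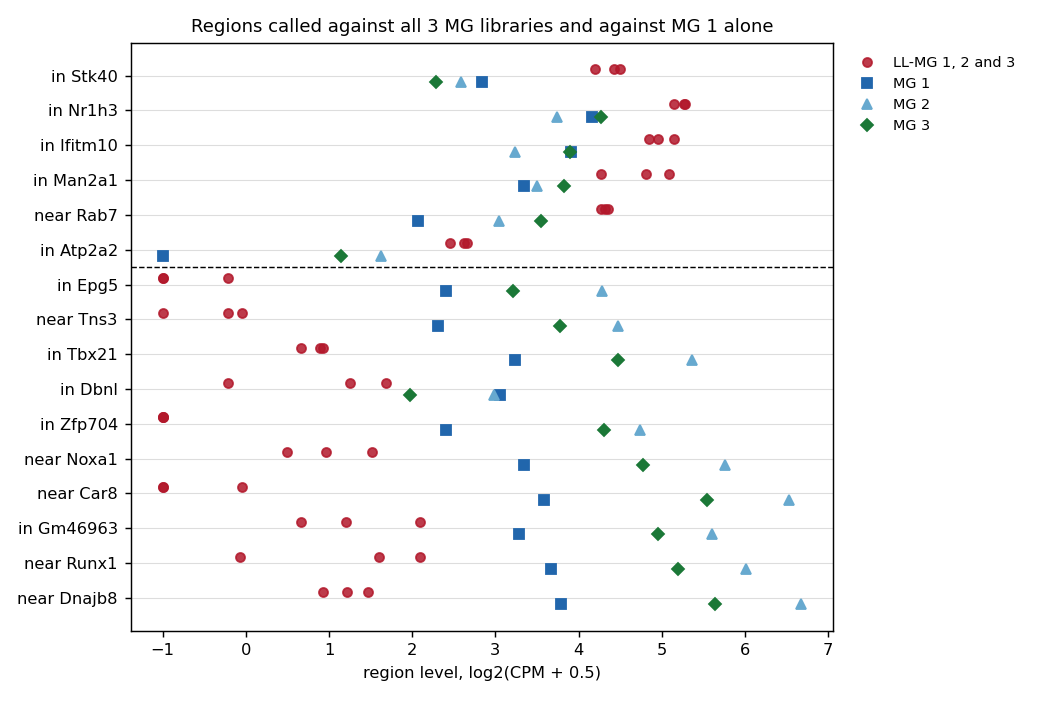
Level of the 16 named regions as log2(CPM + 0.5) in each microglia library, with 6 regions higher in LL-MG above the dashed line and 10 lower in LL-MG below it. Red circles are LL-MG 1, 2 and 3, and squares, triangles and diamonds are MG 1, MG 2 and MG 3; in the lower regions except Dbnl the MG libraries run in the order MG 1, MG 3, MG 2.

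At gene level 10 named loci were higher in LL-MG in both fits and 1 lower. Col27a1, a fibrillar collagen gene (chr4:63214009-63334991), had 100.5, 88.2 and 96.4 CPM in LL-MG, against 48.0, 36.1 and 53.4 CPM in MG. The LL-MG libraries were all above the MG libraries (1.08 ± 0.13, adjusted p = 0.00032 in edgeR; 0.99 against MG 1, adjusted p = 1.88e-05), and 5 of its 9 tested regions were higher and 0 lower. Rab12, a small GTPase that sends recycling endosomes to lysosomes (chr17:66494512-66519750), had 85.6, 80.0 and 93.6 CPM in LL-MG, against 55.4, 40.2 and 45.6 CPM in MG, with all 3 of its tested regions higher (0.91 ± 0.11, adjusted p = 0.00032 in edgeR; 0.65 against MG 1, adjusted p = 0.0318). Aph1b, a subunit of gamma-secretase, the protease complex that cleaves Notch and the amyloid precursor protein (chr9:66775202-66797345), had 137, 137 and 123 CPM in LL-MG, against 80.6, 64.7 and 77.8 CPM in MG (0.84 ± 0.11, adjusted p = 0.000578 in edgeR; 0.71 against MG 1, adjusted p = 0.0053). Slc37a2, a sugar-phosphate transporter of the endoplasmic reticulum in macrophages (chr9:37229149-37255738), had 148, 160.0 and 143 CPM in LL-MG, against 102, 59.9 and 83.5 CPM in MG, and all 6 of its tested regions were higher (0.91 ± 0.14, adjusted p = 0.00236 in edgeR; 0.55 against MG 1, adjusted p = 0.0381).

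The other named higher loci were Zdhhc18, a palmitoyltransferase gene, with 241, 272 and 255 CPM in LL-MG, against 168, 159 and 177 CPM in MG. Slc31a2, a copper transporter gene, had 80.5, 70.8 and 92.9 CPM in LL-MG, against 49.7, 49.0 and 50.5 CPM in MG. In Slc31a2 the MG libraries lay close together, and MG 1 was not set apart from MG 2 and MG 3. Nod1, the cytosolic sensor of bacterial peptidoglycan, had 142, 122 and 123 CPM in LL-MG, against 87.1, 77.3 and 90.6 CPM in MG. Bmp8a, a ligand of the BMP family, had 39.6, 39.8 and 45.3 CPM in LL-MG, against 21.1, 26.9 and 23.1 CPM in MG, with MG 1 the lowest of the MG libraries. Phldb1 (0.72 ± 0.10) and the kinase gene Cdk18 (0.76 ± 0.12) complete the list, with adjusted p = 0.000578 and 0.00171 in edgeR. Sphk1, the sphingosine kinase gene, was called in both fits (0.70 ± 0.11, adjusted p = 0.00171 in edgeR) but shares 59.1% of its counts with neighbouring genes. Each of the 10 kept its call in every fit that left out 1 microglia library. Those fits keep the 6 libraries of monocyte-derived macrophages. With the 6 microglia libraries only, edgeR called 0 of 14882 tested loci, so none of the 10 was called there (4196 loci had an unadjusted p under 0.05).

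Named as lower in both fits was Cytip. This gene, a partner of cytohesins that leukocytes use to let go of adhesion (chr2:58129139-58195549), had 39.6, 38.8 and 48.7 CPM in LL-MG, against 68.4, 106 and 86.0 CPM in MG (-1.05 ± 0.14, adjusted p = 0.000992 in edgeR; -0.68 against MG 1, adjusted p = 0.0442). Of its 20 tested regions 9 were lower and 0 higher, where 8.01% of all tested regions were lower and 4.21% higher. The locus was also lower in LL-MDM, at 163, 151 and 140.3 CPM, against 366, 321 and 329 CPM in MDM (-1.17, adjusted p = 9.81e-07 in edgeR). The Cytip region at chr2:58162050-58162130 had no count in LL-MG and 42 over the MG libraries, at least 7.86-fold lower with the floor of 3 counts. MG 1 held 3 counts there, which equals the floor, so no bound against MG 1 alone can be given.

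**Figure D3:**
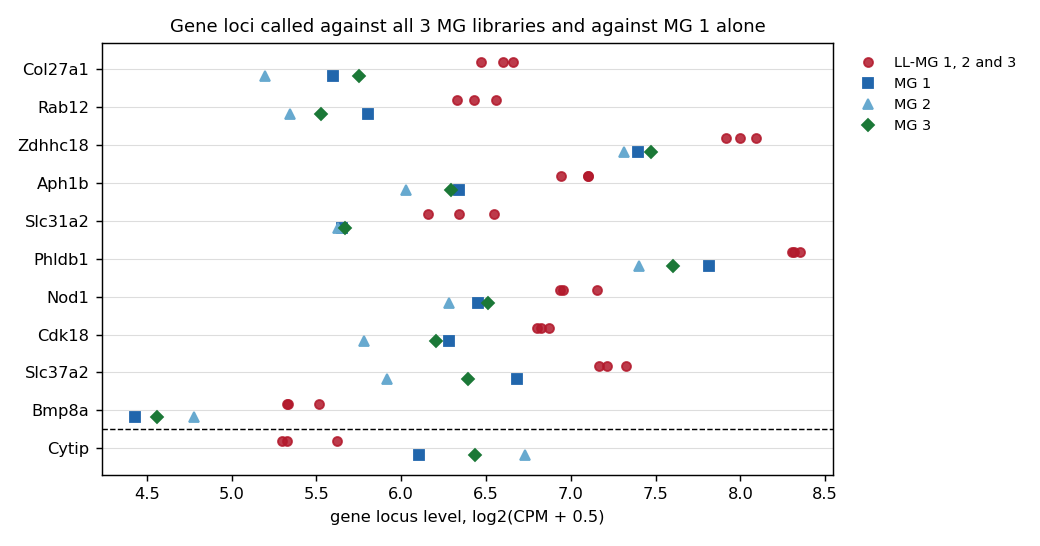
Level of the 11 named gene loci as log2(CPM + 0.5) in each microglia library, with 10 loci higher in LL-MG above the dashed line and Cytip, lower in LL-MG, below it. Red circles are LL-MG 1, 2 and 3, and squares, triangles and diamonds are MG 1, MG 2 and MG 3. No locus has an LL-MG library inside the range of the MG libraries, which the rule for naming loci required.

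A called region overlaps a promoter window of 18 genes named in the text, higher in LL-MG at 6 of them and lower at 12. At Sall1, among the higher, the region covers 28 of the 300 bases of the window. Of all tested regions within 1 kb of a start, 1.15% were higher and 12% lower. Since the 18 genes were named for their calls or as markers, their split is no result about starts. The windows of 5 are printed, from RefSeq on GRCm38.p6, the assembly of mm10, each 250 bases before to 50 after the annotated start, read 5′ to 3′ on the gene's strand, so that the change in accessibility can be read against the DNA it covers. Capitals mark matches on either strand to 6 motifs. AP-1 was searched as TGANTCA. The core bound by PU.1 was GAGGAA. The cAMP response element was TGACGTCA. The E-box was CACGTG. The GATA motif was AGATAA. The nuclear receptor element was AGGTCA. None of these 6 motifs contains another. The windows are chr17:66519621-66519920, minus strand for Rab12, chr9:37255689-37255988, minus strand for Slc37a2, chr9:66795374-66795673, minus strand for Aph1b, chr2:58160073-58160372, minus strand for Cytip and chr6:88193641-88193940, plus strand for Gata2.
Rab12: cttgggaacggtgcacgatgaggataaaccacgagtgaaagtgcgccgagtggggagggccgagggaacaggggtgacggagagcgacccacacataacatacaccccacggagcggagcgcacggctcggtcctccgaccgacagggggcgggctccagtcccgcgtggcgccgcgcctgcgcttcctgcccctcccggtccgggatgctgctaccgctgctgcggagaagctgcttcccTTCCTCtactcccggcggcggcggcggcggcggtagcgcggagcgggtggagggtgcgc
Slc37a2: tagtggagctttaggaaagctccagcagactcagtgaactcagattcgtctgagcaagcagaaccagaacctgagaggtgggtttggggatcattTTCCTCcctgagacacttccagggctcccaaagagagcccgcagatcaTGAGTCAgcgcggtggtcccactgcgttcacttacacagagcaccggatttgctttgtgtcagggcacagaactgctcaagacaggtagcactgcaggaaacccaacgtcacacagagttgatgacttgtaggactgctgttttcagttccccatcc
Aph1b: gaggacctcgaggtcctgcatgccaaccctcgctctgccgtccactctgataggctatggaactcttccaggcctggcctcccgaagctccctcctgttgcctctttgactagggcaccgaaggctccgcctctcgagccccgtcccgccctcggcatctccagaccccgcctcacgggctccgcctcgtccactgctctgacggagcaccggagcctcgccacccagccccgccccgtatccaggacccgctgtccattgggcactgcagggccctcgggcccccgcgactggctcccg
Cytip: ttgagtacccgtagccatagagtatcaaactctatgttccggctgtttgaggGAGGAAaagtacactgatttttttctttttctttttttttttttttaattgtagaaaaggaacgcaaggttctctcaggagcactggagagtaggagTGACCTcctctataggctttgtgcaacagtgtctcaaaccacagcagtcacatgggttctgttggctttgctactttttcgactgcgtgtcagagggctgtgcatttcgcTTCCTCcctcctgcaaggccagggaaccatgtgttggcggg
Gata2: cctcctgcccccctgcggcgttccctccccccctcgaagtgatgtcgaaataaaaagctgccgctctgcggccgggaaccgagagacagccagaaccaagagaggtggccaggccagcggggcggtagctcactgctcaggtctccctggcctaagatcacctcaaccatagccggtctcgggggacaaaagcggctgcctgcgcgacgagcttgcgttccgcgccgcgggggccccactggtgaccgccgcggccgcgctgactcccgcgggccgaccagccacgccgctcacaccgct

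The region over the Rab12 start (chr17:66518901-66519899) had 63.3, 60.7 and 65.7 CPM in LL-MG, against 41.5, 39.8 and 39.8 CPM in MG (0.65 ± 0.13, adjusted p = 0.00222 in edgeR). Its window holds a PU.1 core in the reverse direction, TTCCTC, just before the start. Over the Slc37a2 start (chr9:37255162-37256074) there were 57.5, 51.7 and 54.8 CPM in LL-MG, against 50.04, 28.6 and 35.1 CPM in MG (0.57 ± 0.16, adjusted p = 0.0233 in edgeR). The window holds an AP-1 match, TGAGTCA, and a PU.1 core. The Slc37a2 start region was called in 1 of the 6 fits that left out a library and not without LL-MG 1, LL-MG 2, LL-MG 3, MG 2 or MG 3 (0.0573 to 0.134). Over the Aph1b start (chr9:66795233-66796139) there were 143, 138 and 123 CPM in LL-MG, against 83.4, 79.8 and 88.8 CPM in MG (0.68 ± 0.12, adjusted p = 0.00136 in edgeR), with none of the 6 motifs in the window. These 3 start regions were more open in every LL-MG library than in any MG library. Over the Cytip start (chr2:58159883-58160250) there were 5.88, 8.46 and 7.62 CPM in LL-MG, against 12.6, 16.0 and 15.9 CPM in MG (-1.03 ± 0.22, adjusted p = 0.0038 in edgeR). The window holds 2 PU.1 cores and 1 AGGTCA element, but the region covers 178 of its 300 bases, and the PU.1 core farther upstream lies outside it. Over the Gata2 start (chr6:88193568-88194008) there were 12.2, 9.87 and 12.0 CPM in LL-MG, against 15.2, 47.2 and 32.4 CPM in MG (-1.52 ± 0.31, adjusted p = 0.00583 in edgeR), with MG 1 near the LL-MG libraries. The Rab12, Aph1b, Cytip and Gata2 start regions kept their call without any 1 library. Among the 12 lower start regions were those of Runx1 (-1.11 ± 0.18, adjusted p = 0.00134 in edgeR, called without any 1 library), Rab7 (-0.58 ± 0.15, adjusted p = 0.0106, called in 2 of the 6 fits that left out a library) and Stk40 (-0.40 ± 0.13, adjusted p = 0.0399, called in 1 of the 6). At Rab7 and Stk40 the start thus went the other way from the named region. A match is a description of the letters and no measurement of binding.

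Regions at transcription starts were called lower far more often than higher. Of the 14703 tested regions within 1 kb of an annotated start, 1.15% were higher in LL-MG and 12% lower. In gene spans away from starts the shares were 5.16% and 6.87% of 34133 regions, and between genes 4.68% and 7.26% of 26686. The median log2 fold change at starts was -0.18 against all 3 MG libraries and -0.05 against MG 1 alone, where 2 start regions were called. Of the 171 RefSeq promoter windows that overlap a higher region, 13.5% hold the AP-1 letters, against 4.81% of the 2160 that overlap a lower region, 5.49% of the 12732 that overlap any tested region and 7.81% of all 32851. The cAMP response element was in 1.75% of the promoters over higher regions, 7.41% of those over lower regions, 3.3% of those over any tested region and 1.79% of all. For the E-box these shares were 7.6%, 15.7%, 10.7% and 7.15%, and for the PU.1 core 35.7%, 27.6%, 27.3% and 28.3%. The GATA letters were in 12.9%, 5.93%, 5.4% and 11.2%, and the AGGTCA element in 18.7%, 11.9%, 11.5% and 16.3%. Windows of 1 gene can overlap each other, and these shares carry no test.

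Among the 5 lists of lipid handling the calls against all 3 MG libraries were nearly all higher in LL-MG, and none of their members was called against MG 1 alone. These counts are set against 10.3% of all tested loci called higher and 7.98% called lower. Of 20 cholesterol efflux and LXR loci 9 were higher and 0 lower, with a median of 0.30 (0.14 against MG 1, with 14 of 20 above 0), where the median of all tested loci was 0.03 (0.01 against MG 1). With total counts the list had 7 higher and 1 lower. Abca1, the exporter that loads cholesterol onto apolipoproteins, had 317, 318 and 298 CPM in LL-MG, against 275, 178 and 220.4 CPM in MG (0.48 ± 0.11, adjusted p = 0.0103 in edgeR; 0.18 against MG 1). At Abca1 MG 1 was the MG library closest to LL-MG. A region inside Abca1 at chr4:53081994-53082142 had 9.95, 7.52 and 6.53 CPM in LL-MG, against 3.34, 2.92 and 0.976 CPM in MG (1.73 ± 0.38, adjusted p = 0.00436 in edgeR). It was likewise higher in LL-MDM, at 10.6, 5.42 and 7.88 CPM, against 1.68, 1.09 and 1.20 CPM in MDM. The LXR alpha gene Nr1h3 as a whole had 172, 193 and 176 CPM in LL-MG, against 145, 121 and 140.3 CPM in MG (0.42 ± 0.09, adjusted p = 0.00557 in edgeR), with 70.5% of its counts shared with neighbouring genes. Apoc4, a gene of the apolipoprotein cluster beside Apoe, had 29.4, 36.6 and 36.3 CPM in LL-MG, against 22.8, 17.2 and 22.9 CPM in MG (0.73 ± 0.16, adjusted p = 0.00608 in edgeR). All counts of Apoc4 are shared, and 2 of its 4 regions also count for Apoc2, another of the 9. Abca1, Nr1h3 and Apoc4 were the 3 of the 9 called in each fit that left out 1 library. The exporter gene Abcg1 (0.39 ± 0.12, adjusted p = 0.0335 in edgeR) was not called without LL-MG 1, LL-MG 2, MG 2 or MG 3 (0.107 to 0.173). Apoe, the main lipid carrier of the brain, had 53.6, 58.0 and 51.1 CPM in LL-MG, against 45.2, 40.0 and 40.8 CPM in MG, all of it shared with its neighbours (0.38 ± 0.12, adjusted p = 0.0343 in edgeR). The call held in 1 of the 6 fits that left out a library, the one without MG 1, with 0.0683 to 0.162 in the others.

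Of 16 PPAR and fatty acid oxidation loci 6 were higher and 0 lower (median 0.20; 0.10 against MG 1). Ppard, the gene of PPAR delta, had 361, 366 and 326 CPM in LL-MG, against 290.1, 236 and 251.1 CPM in MG (0.44 ± 0.09, adjusted p = 0.00463 in edgeR). Angptl4, a lipase inhibitor and PPAR target, had 73.2, 71.8 and 64.6 CPM in LL-MG, against 55.1, 49.8 and 50.3 CPM in MG (0.44 ± 0.10, adjusted p = 0.00806 in edgeR). Both kept their call in the fits that left out 1 library, but the direction of Ppard turned with start regions only (-0.15). Ppargc1b, a coactivator of oxidative metabolism (0.42 ± 0.11, adjusted p = 0.0142 in edgeR), was not called without LL-MG 1, LL-MG 3 or MG 2 (0.0603 to 0.0903). Of 15 uptake receptors 3 were higher. Lrp1, which takes up lipoproteins and myelin debris, had 477, 493 and 438 CPM in LL-MG, against 404, 275 and 324 CPM in MG (0.50 ± 0.11, adjusted p = 0.00664 in edgeR). The scavenger receptor genes Stab1 (0.66 ± 0.17, adjusted p = 0.0213) and Scarb1 (0.31 ± 0.08, adjusted p = 0.0171) were the others, of which Lrp1 alone held in each fit that left out a library. Stab1, with 60.8% of its counts shared, was not called without LL-MG 1, LL-MG 2 or MG 3 (0.0612 to 0.0713), nor Scarb1 without LL-MG 2 or MG 2 (0.0932 to 0.111). Of 20 lipid droplet and storage loci 4 were higher and 1 lower (median 0.05). Plin2, the coat protein of lipid droplets, had 65.1, 79.1 and 67.7 CPM in LL-MG, against 59.5, 39.0 and 53.0 CPM in MG (0.52 ± 0.13, adjusted p = 0.0111 in edgeR), and was not called without LL-MG 2 or MG 2 (0.062 to 0.0739). At Plin2 MG 1 lay between the lowest LL-MG library and MG 3. Pnpla2, the triglyceride lipase ATGL, had 97.1, 94.1 and 98.5 CPM in LL-MG, against 81.6, 67.5 and 69.2 CPM in MG (0.42 ± 0.10, adjusted p = 0.00785 in edgeR). Acsl4, which activates arachidonic and other polyunsaturated fatty acids, was the lower member, with 57.9, 59.4 and 53.9 CPM in LL-MG, against 75.2, 106 and 86.6 CPM in MG (-0.67 ± 0.11, adjusted p = 0.00222 in edgeR). Pnpla2 and Acsl4 kept their calls without any 1 library, but all counts of Pnpla2 are shared with neighbouring genes.

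The next list counts are again set against 10.3% of all tested loci called higher and 7.98% called lower. Sterol synthesis had 3 higher and 1 lower of 17 loci, none of which held in each fit that left out a library. The synthase gene Lss was lower (-0.78 ± 0.20, adjusted p = 0.022 in edgeR) and Mvd (0.41 ± 0.12, adjusted p = 0.032) and Fdft1 (0.32 ± 0.10, adjusted p = 0.0336) higher. Mvd shares 62.9% of its counts with neighbouring genes and Fdft1 91.0%. Lss was not called without LL-MG 2 or LL-MG 3 (0.0769 to 0.0805), Mvd without LL-MG 1, LL-MG 2, MG 2 or MG 3 (0.0993 to 0.122) and Fdft1 without LL-MG 1, LL-MG 2, LL-MG 3, MG 2 or MG 3 (0.0538 to 0.179). Of 21 lysosome and autophagy loci 6 were higher and 1 lower (median 0.20; 0.03 against MG 1). Mitf, a regulator of lysosomal genes, had 244, 247 and 240.5 CPM in LL-MG, against 207, 142 and 182 CPM in MG (0.48 ± 0.10, adjusted p = 0.00639 in edgeR). Galc, the lysosomal enzyme that breaks down the myelin lipid galactosylceramide, was the lower member, with 51.5, 47.5 and 47.0 CPM in LL-MG, against 57.8, 79.8 and 75.5 CPM in MG (-0.57 ± 0.11, adjusted p = 0.00486 in edgeR). Mitf and Galc were the 2 that held without any 1 library. The direction of Galc turned when only regions within 1 kb of a start were summed (0.06). The beta-hexosaminidase gene Hexa, with 51.1% of its counts shared (0.47 ± 0.11, adjusted p = 0.00947 in edgeR) was not called without LL-MG 2 (0.0533), and the cathepsin gene Ctsb (0.61 ± 0.16, adjusted p = 0.0215) not without LL-MG 1, LL-MG 2 or MG 3 (0.0569 to 0.0822). The list of lipid-associated macrophage and disease-associated microglia genes had 4 higher and 0 lower of 21 (median 0.30; 0.19 against MG 1, with 19 of 21 above 0). Its best known members did not pass. Trem2, a lipid-sensing receptor, had 80.5, 80.9 and 84.996 CPM in LL-MG, against 65.6, 40.3 and 66.4 CPM in MG (0.55 ± 0.20, adjusted p = 0.0679 in edgeR). The differences of the others were 0.23 ± 0.16 for Gpnmb (adjusted p = 0.31), 0.35 ± 0.12 for Itgax (0.0555), 0.92 ± 0.36 for Lpl (0.074), -0.24 ± 0.14 for Cd9 (0.256) and -0.11 ± 0.19 for Spp1 (0.718). Without MG 1, Trem2, Itgax and Cd9 were called (adjusted p = 0.0327, 0.000785 and 0.0019). Its called members were Apoe, Ctsb, Ctsd (0.30 ± 0.10) and Cd63 (0.32 ± 0.09, with 86.7% of counts shared), none of which held in each fit that left out a library. Ctsd was not called without LL-MG 1, LL-MG 2, MG 2 or MG 3 (0.145 to 0.19), nor Cd63 without LL-MG 1, LL-MG 2, LL-MG 3 or MG 2 (0.0511 to 0.086). Apoe was described above.

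**Figure D4:**
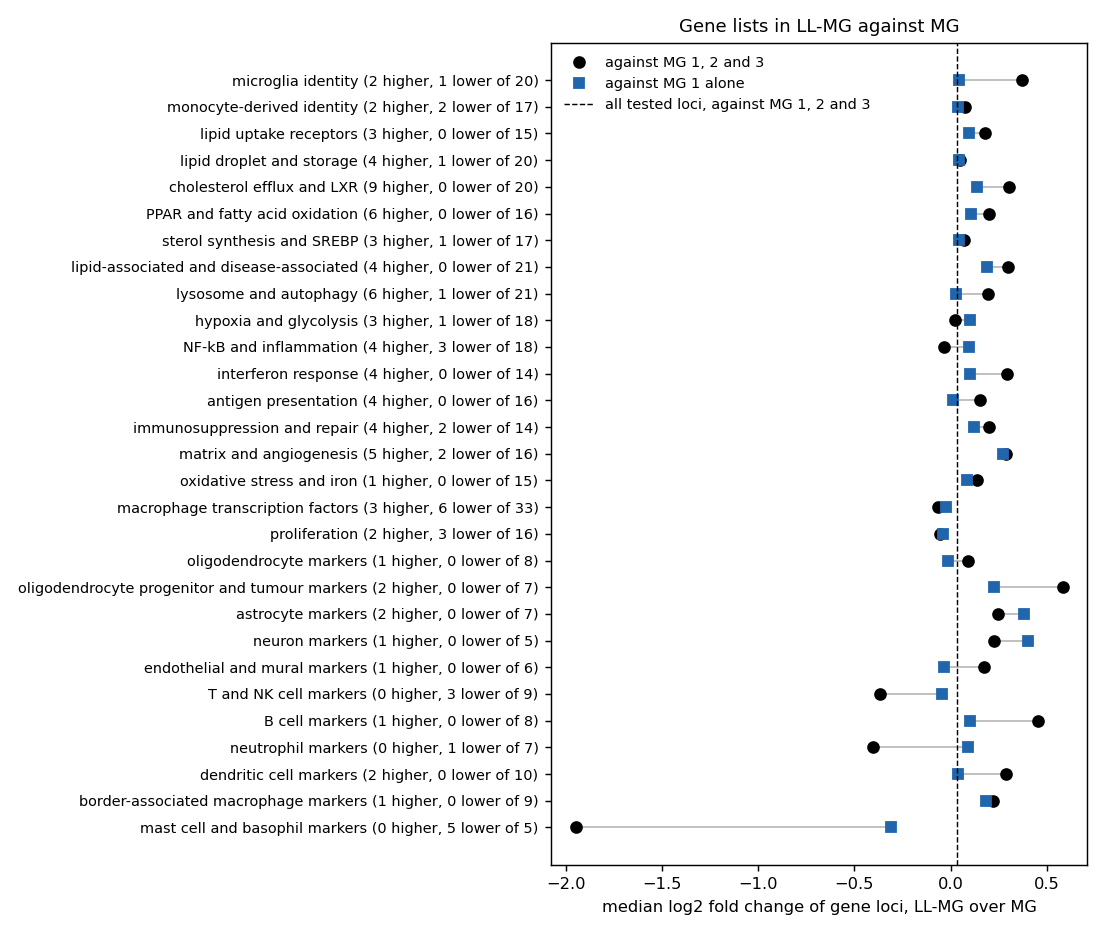
Median log2 fold change of the tested loci of each gene list in LL-MG over MG (horizontal) for the 29 lists, with the number of members called higher and lower of those tested in brackets. Black circles use all 3 MG libraries, blue squares MG 1 alone, and the dashed line is the median of all tested loci (0.03); the mast cell and basophil list lies lowest, at -1.95 against all 3 MG libraries and -0.31 against MG 1.

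Of 20 microglial identity loci 2 were higher and 1 lower in edgeR, beside 10.3% and 7.98% of all tested loci. DESeq2 called 6 higher and 1 lower, and limma-voom 7 higher and 0 lower. Csf1r, the receptor on which microglia depend for survival, and Cx3cr1, the fractalkine receptor, were higher (0.46 ± 0.13 and 0.28 ± 0.08, adjusted p = 0.0251 and 0.0264 in edgeR) and Crybb1 was lower (-0.69 ± 0.19, adjusted p = 0.0301). Csf1r was not called without LL-MG 1, LL-MG 2, LL-MG 3, MG 2 or MG 3 (0.0564 to 0.0966), Cx3cr1 without LL-MG 1, LL-MG 2, LL-MG 3, MG 2 or MG 3 (0.0619 to 0.12) and Crybb1 without LL-MG 1, LL-MG 2, LL-MG 3 or MG 3 (0.0649 to 0.0932). In addition, Cx3cr1 and Crybb1 changed sign when only start regions were summed (-0.13 and 0.37). Crybb1 shares 97.6% of its counts with neighbouring genes. P2ry12, the purinergic receptor of resting microglia, whose counts are all shared, had 84.3, 92.8 and 86.0 CPM in LL-MG, against 99.99, 49.1 and 79.9 CPM in MG (0.25 ± 0.21, adjusted p = 0.437 in edgeR). Tmem119, a microglial membrane protein gene, had 54.1, 58.0 and 52.2 CPM in LL-MG, against 49.99, 35.3 and 45.8 CPM in MG (0.35 ± 0.13, adjusted p = 0.0601). Without MG 1, Sall1, P2ry12 and Tmem119 were called (adjusted p = 0.000545, 0.0361 and 0.00541). The list's median of 0.37 became 0.04 against MG 1, and MG 2 had the lowest level in each of Sall1, P2ry12, Tmem119, Cx3cr1 and Csf1r. Among 17 loci of monocyte-derived cells 2 were higher and 2 lower. Ccr2, the chemokine receptor that brings monocytes into tissue, had 2.98, 5.48 and 5.53 CPM in LL-MG, against 9.86, 40.6 and 27.1 CPM in MG. The groups did not overlap (-2.55 ± 0.48, adjusted p = 0.00806 in edgeR; -1.07 against MG 1, adjusted p = 0.404), and the call held without any 1 library.

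Inflammatory and immune loci moved in both directions. Their counts are to be read beside 10.3% of all tested loci called higher and 7.98% called lower. Of 14 interferon response loci 4 were higher and 0 lower (median 0.29; 0.10 against MG 1). Bst2 (tetherin) was higher without any 1 library (0.60 ± 0.13, adjusted p = 0.00701 in edgeR), whereas Rsad2 (0.33 ± 0.10, adjusted p = 0.0342) was not called without LL-MG 1, LL-MG 2, LL-MG 3, MG 2 or MG 3 (0.0615 to 0.163). Of 16 antigen presentation loci 4 were higher and 0 lower, led by Ciita, the master regulator of MHC class II, with 67.3, 62.2 and 63.6 CPM in LL-MG, against 53.1, 31.7 and 38.5 CPM in MG (0.70 ± 0.14, adjusted p = 0.00557 in edgeR). The class II gene H2-Eb1 (0.46 ± 0.13, adjusted p = 0.0193) and its chaperone gene H2-DMb1 (0.54 ± 0.16, adjusted p = 0.0264) were higher as well. H2-DMb1 shares 69.9% of its counts. H2-Eb1 was not called without LL-MG 1, LL-MG 2, MG 2 or MG 3 (0.0526 to 0.127), nor H2-DMb1 without LL-MG 1, LL-MG 2, MG 2 or MG 3 (0.0523 to 0.176). H2-Aa did not pass (0.19 ± 0.14, adjusted p = 0.343). NF-kB targets split into 4 higher and 3 lower of 18. The cytokine genes Il1a (0.43 ± 0.10) and Il12b (0.66 ± 0.20) were higher and the chemokine gene Ccl4 lower (-0.51 ± 0.13), with adjusted p = 0.00974, 0.0285 and 0.0153 in edgeR, and none of the 7 held without any 1 library. Il1a, with 54.3% of its counts shared, was not called without LL-MG 1 (0.0547), Il12b without LL-MG 1, LL-MG 2, MG 2 or MG 3 (0.107 to 0.114) and Ccl4 without LL-MG 3 (0.0668). Of 33 macrophage transcription factors 3 were higher and 6 lower, against 4 and 1 in limma-voom and 3 and 9 with total counts. Batf, an AP-1 family member, had 249, 257 and 213 CPM in LL-MG, against 198, 137 and 136 CPM in MG (0.63 ± 0.13, adjusted p = 0.00806 in edgeR). Jund, another, with 91.3% of its counts shared, was lower (-0.33 ± 0.09, adjusted p = 0.0199). Batf held without any 1 library, but its sign turned with start regions only (-0.17), and Jund was not called without LL-MG 3 or MG 2 (0.0809 to 0.135). Runx1 (-0.31 ± 0.10) and Runx2 (-0.58 ± 0.17) were lower against all 3 MG libraries and stood at 0.02 and -0.02 against MG 1. Of the regions, 11 of 41 tested Runx1 regions and 10 of 33 tested Runx2 regions were lower and none higher. Among all tested regions 8.01% were lower and 4.21% higher. Runx1 was not called without LL-MG 1, LL-MG 2, LL-MG 3, MG 2 or MG 3 (0.0689 to 0.271), nor Runx2 without LL-MG 1, LL-MG 2, LL-MG 3 or MG 3 (0.0774 to 0.101).

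Of 16 matrix and angiogenesis loci 5 were higher and 2 lower, with a median of 0.29 against all 3 MG libraries and 0.27 against MG 1. This count and those of the lists that follow stand beside 10.3% of all tested loci called higher and 7.98% called lower. Timp2, an inhibitor of metalloproteinases, had 109, 121 and 91.2 CPM in LL-MG, against 78.9, 70.1 and 75.7 CPM in MG (0.52 ± 0.10, adjusted p = 0.00446 in edgeR; 0.43 against MG 1, adjusted p = 0.227), and held without any 1 library. Thbs1 (0.53 ± 0.14, adjusted p = 0.0157) and Mmp14 (0.46 ± 0.12, adjusted p = 0.0173) were not called without LL-MG 2 or LL-MG 3 (0.065 to 0.078) for Thbs1 and without LL-MG 1, LL-MG 2, LL-MG 3, MG 2 or MG 3 (0.0604 to 0.0811) for Mmp14, and Mmp14, with 50.8% of its counts shared, changed sign with start regions only (-0.03). Arg1, which turns arginine away from nitric oxide synthesis, had 49.8, 65.8 and 50.1 CPM in LL-MG, against 39.8, 25.6 and 38.5 CPM in MG (0.71 ± 0.17, adjusted p = 0.0133 in edgeR) and was not called without LL-MG 2 (0.0724). Arg1 stands on the hypoxia list (3 higher and 1 lower of 18, with Hk2 at 0.37 ± 0.09 and Pfkfb3 at 0.30 ± 0.08) and on that of immunosuppression and repair (4 higher and 2 lower of 14, with the checkpoint ligand gene Vsir, its counts all shared, at 0.46 ± 0.11 and Pdcd1lg2 at -0.58 ± 0.15). Hk2 was not called without LL-MG 1, LL-MG 2 or MG 2 (0.0509 to 0.0628), Pfkfb3 without LL-MG 1, LL-MG 2, MG 2 or MG 3 (0.0734 to 0.114) and Vsir without LL-MG 2 (0.053). The same held for Pdcd1lg2 without LL-MG 1 or LL-MG 3 (0.0626 to 0.0662). The cystine transporter gene Slc7a11 was the only called member of 15 oxidative stress and iron loci (0.49 ± 0.14, adjusted p = 0.0311 in edgeR), and was not called without LL-MG 1, LL-MG 2, LL-MG 3, MG 2 or MG 3 (0.0659 to 0.117). Proliferation loci split into 2 higher, with Mki67 at 0.39 ± 0.10, and 3 lower, with Top2a at -0.45 ± 0.13 and Mcm5 at -0.44 ± 0.12, of 16. Mki67 was not called without LL-MG 3 or MG 3 (0.052 to 0.0802), Top2a without LL-MG 1, LL-MG 2, MG 2 or MG 3 (0.0617 to 0.158) and Mcm5 without LL-MG 1, LL-MG 3 or MG 2 (0.0707 to 0.151).

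Markers of mast cells and basophils were called lower in LL-MG as a whole list, a result that depends on the tool. All 5 tested loci of 8 listed (Ms4a2, Cpa3, Hdc, Gata2 and Kit) were called against the 3 MG libraries in edgeR and in DESeq2, but none of them in limma-voom and none against MG 1 alone in edgeR, with a median of -1.95 and of -0.31 against MG 1. The summed level of the list was 96.2, 80.0 and 91.6 CPM in LL-MG 1, 2 and 3, against 112, 405 and 250.02 CPM in MG 1, 2 and 3. MG 1 thus stood just above the LL-MG libraries and MG 2 highest. Hdc, which makes histamine, had 33.6, 32.9 and 30.8 CPM in LL-MG, against 46.3, 197 and 115 CPM in MG (-1.95 ± 0.47, adjusted p = 0.0261 in edgeR; -0.52 against MG 1), and was not called without LL-MG 1, LL-MG 2, LL-MG 3, MG 2 or MG 3 (0.0545 to 0.0804). Ms4a2, the beta chain of the high-affinity IgE receptor, had 3.41, 2.74 and 5.18 CPM in LL-MG, against 7.48, 38.3 and 19.98 CPM in MG (-2.58 ± 0.52, adjusted p = 0.00919 in edgeR) and was the member that held without any 1 library. Cpa3, the mast cell carboxypeptidase, had 1.28, 0.914 and 1.73 CPM in LL-MG, against 2.72, 19.5 and 9.04 CPM in MG (-3.07 ± 0.74, adjusted p = 0.0165 in edgeR). Kit, the stem cell factor receptor, had 7.66, 5.94 and 7.95 CPM in LL-MG, against 7.14, 21.5 and 15.8 CPM in MG (-1.16 ± 0.36, adjusted p = 0.043), with 0.02 against MG 1. Cpa3 was not called without LL-MG 1, LL-MG 2 or LL-MG 3 (0.0563 to 0.0634), Kit without LL-MG 1, LL-MG 2, LL-MG 3, MG 2 or MG 3 (0.0865 to 0.124) and Gata2 without LL-MG 1, LL-MG 2, LL-MG 3 or MG 3 (0.0724 to 0.108). The basophil protease gene Mcpt8 stayed under the count filter, with 0, 0 and 0.691 CPM in LL-MG, against 0.680, 13.3 and 6.94 CPM in MG. Of 27 tested regions within 100 kb of Hdc 11 were lower, of 13 around Ms4a2 3, of 13 around Kit 3 and of 5 around Cpa3 1, with 1 higher region in all, near Cpa3. These stand beside 8.01% lower and 4.21% higher of all tested regions. Of the 12 listed T and NK cell markers 9 were tested and 3 were lower, all 3 in every fit that left out 1 library. Loci near 0 in LL-MG, here Gzmb, Nkg7 and Cpa3, could be called in the lower direction only. For them those fits are no independent support. Of all tested loci 7.98% were lower, which holds as background for the mast cell and basophil list too. The granule protease gene Gzmb had 0.851, 0.457 and 0.691 CPM in LL-MG, against 2.38, 24.5 and 14.7 CPM in MG (-4.44 ± 0.89, adjusted p = 0.00919 in edgeR). Nkg7, of cytotoxic granules, had 0.426, 0.914 and 0.346 CPM in LL-MG, against 2.72, 13.7 and 7.78 CPM in MG (-3.98 ± 0.69, adjusted p = 0.00357, with all counts shared with a neighbour). Cd3d, part of the T cell receptor complex, had 23.8, 21.0 and 19.7 CPM in LL-MG, against 28.2, 55.1 and 35.3 CPM in MG (-0.94 ± 0.20, adjusted p = 0.00889). Cd3e, a defining T cell gene, was near 0 in all 6 libraries, at 0.426 to 1.38 CPM in LL-MG and 0.340 to 2.84 CPM in MG, and the summed list was at 224, 204 and 197 CPM in LL-MG 1, 2 and 3, against 217, 295 and 244 CPM in MG 1, 2 and 3. The part of such cells in the lower regions and loci was not tested.

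**Figure D5:**
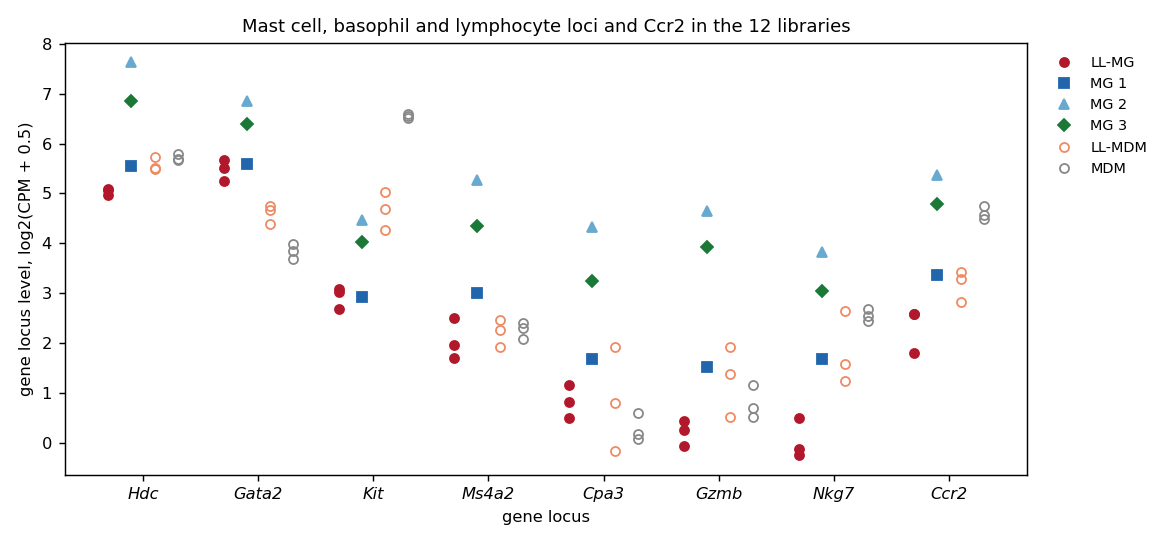
Level of 8 gene loci as log2(CPM + 0.5) in the 12 libraries, with the mast cell and basophil loci Hdc, Gata2, Kit, Ms4a2 and Cpa3, the lymphocyte loci Gzmb and Nkg7, and Ccr2. Filled red circles are LL-MG, squares, triangles and diamonds MG 1, MG 2 and MG 3, and open circles LL-MDM and MDM; MG 2 and MG 3 stand above MG 1 and the LL-MG libraries at all 8 loci, as at Hdc with 197 and 115 CPM in MG 2 and MG 3 and 46.3 CPM in MG 1.

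Lists of markers of glia, neurons and vessels each had 1 or 2 members called higher in LL-MG, which is to be read beside the 10.3% of all tested loci called higher. Oligodendrocyte progenitor and tumour markers had 2 of 7 tested higher and 0 lower and summed to 136, 139 and 153 CPM in LL-MG 1, 2 and 3, against 115, 78.6 and 88.7 CPM in MG 1, 2 and 3. Cspg4, which encodes NG2, had 50.2, 53.9 and 59.4 CPM in LL-MG, against 36.7, 26.7 and 32.6 CPM in MG (0.80 ± 0.16, adjusted p = 0.00463 in edgeR) and held without any 1 library. The neural stem cell gene Nes (0.56 ± 0.16, adjusted p = 0.0198) was not called without LL-MG 1, LL-MG 2, LL-MG 3, MG 2 or MG 3 (0.0506 to 0.0897). Astrocyte markers had 2 of 7 higher and summed to 287, 281 and 281 CPM in LL-MG, against 246, 204 and 230.0 CPM in MG. The glutamate transporter gene Slc1a2 had 115, 118 and 112 CPM in LL-MG, against 87.1, 50.5 and 70.2 CPM in MG (0.77 ± 0.14, adjusted p = 0.00446 in edgeR). The intermediate filament gene Gfap had 26.0, 26.0 and 22.1 CPM in LL-MG, against 16.3, 14.6 and 17.5 CPM in MG (0.62 ± 0.16, adjusted p = 0.0132), not called without LL-MG 1, LL-MG 2 or MG 2 (0.0596 to 0.0758). The oligodendrocyte regulator Sox10, 1 of 8 tested markers of its list, was higher at low level, with 2.98, 4.11 and 2.76 CPM in LL-MG, against 1.70, 0.406 and 1.26 CPM in MG (1.75 ± 0.57, adjusted p = 0.039 in edgeR), and was not called without LL-MG 1, LL-MG 2 or LL-MG 3 (0.0816 to 0.144). Without MG 2 or MG 3 it stayed under the count filter. Pdgfra (0.58 ± 0.22, adjusted p = 0.0604) and Olig2 (0.20 ± 0.47, adjusted p = 0.794) did not pass. Neuron (Rbfox3, 0.58 ± 0.17), endothelial (Cdh5, 0.57 ± 0.16), B cell (Blk, 0.78 ± 0.19), border-associated macrophage (Siglec1, 0.66 ± 0.18) and neutrophil markers (Ltf, -0.61 ± 0.21, lower) had 1 called member each, of 5, 6, 8, 9 and 7 tested. Dendritic cell markers had 2 of 10 (Xcr1, 0.59 ± 0.11, and Irf4, 0.49 ± 0.16), of which Xcr1, with all counts shared with neighbouring genes, alone held without any 1 library. Rbfox3 was not called without LL-MG 1, LL-MG 2, LL-MG 3 or MG 2 (0.0504 to 0.119), Cdh5 without LL-MG 1, LL-MG 2, LL-MG 3, MG 2 or MG 3 (0.0556 to 0.116) and Blk without LL-MG 3 or MG 2 (0.0717 to 0.0721). The same held for Siglec1 without LL-MG 1, LL-MG 3 or MG 2 (0.0698 to 0.117), Ltf without LL-MG 1, LL-MG 2, LL-MG 3, MG 2 or MG 3 (0.0565 to 0.291) and Irf4 without LL-MG 1, LL-MG 2, LL-MG 3, MG 2 or MG 3 (0.0609 to 0.23). The part of these cells in the results was not tested.

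Some loci, chosen after their values were seen, held many called regions, where 4.21% of all tested regions were higher and 8.01% lower. Hivep3, a zinc finger transcription factor gene, had 25 higher and 0 lower of 51 tested regions, and its summed level was 971, 1006 and 925 CPM in LL-MG, against 751, 382 and 513 CPM in MG (0.83 ± 0.18, adjusted p = 0.0125 in edgeR). Rcan1, the inhibitor of calcineurin, had 10 higher of 14, with 441, 444 and 412 CPM in LL-MG, against 324, 204 and 255 CPM in MG (0.74 ± 0.12, adjusted p = 0.0037). In both MG 1 was the MG library nearest to LL-MG. App, the amyloid precursor protein gene, had 6 higher of 28 (0.62 ± 0.15, adjusted p = 0.0156 in edgeR), and Nrp2, a semaphorin and VEGF receptor, 6 of 18 (0.77 ± 0.13, adjusted p = 0.00396). On the lower side Dapp1, an adaptor of B cell receptor signalling, had 17 lower and 0 higher of 27 tested regions, with 151, 162 and 163 CPM in LL-MG, against 195, 394 and 289 CPM in MG (-0.90 ± 0.20, adjusted p = 0.0143 in edgeR). It was lower in LL-MDM too, at 162, 144 and 143 CPM, against 296, 268 and 270.0 CPM in MDM. Gfod1 had 14 lower of 25 (-1.09 ± 0.28, adjusted p = 0.0305). App was not called without LL-MG 1 or LL-MG 3 (0.0533 to 0.0627), Dapp1 without LL-MG 1 or LL-MG 2 (0.0517 to 0.0558) and Gfod1 without LL-MG 1, LL-MG 2, LL-MG 3 or MG 3 (0.0639 to 0.0907). In Arhgap26 and Foxp1, with 13 lower regions of 64 and 67, the summed locus did not pass (-0.23 ± 0.09 and -0.22 ± 0.11, adjusted p = 0.0692 and 0.141 in edgeR). Hivep3, Rcan1 and Nrp2 kept their call without any 1 library. These loci were ranked by their number of called regions, which favours long genes. Without MG 1 both Arhgap26 and Foxp1 were called (adjusted p = 0.00198 and 0.000624).

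In monocyte-derived macrophages, LL-MDM against MDM called 11998 regions higher (15.4%) and 10968 lower (14.1%). Of the 3276 regions higher in LL-MG 1604 (49%) were among the higher ones in LL-MDM, which is 13.4% of that list. For the other direction, of the 6226 lower in LL-MG 1168 (18.8%) were among the lower ones, 10.6% of that list. The 2 comparisons share no library but were fitted in 1 model, and neither overlap was tested. The test of the difference itself, lipid load in microglia minus lipid load in monocyte-derived macrophages, called 8467 regions (10.9%) and 1356 gene loci (8.72%). Of the 11 named loci 8 passed it, all of them more strongly higher in LL-MG over MG than in LL-MDM over MDM. The 11 were chosen for their LL-MG over MG difference, which is a part of this contrast. That count and the shared sign follow in part from this choice and are no independent support. Col27a1 had 52.5, 51.7 and 55.6 CPM in LL-MDM and 61.9, 55.7 and 49.5 CPM in MDM, so that its difference of 1.08 in microglia stood beside -0.08 in monocyte-derived cells (interaction 1.16 ± 0.17, adjusted p = 0.000367 in edgeR). Bmp8a had 0.79 beside -0.02 (interaction 0.81 ± 0.18, adjusted p = 0.00928). MHC class II loci had the largest interactions among the named loci with a positive sign: H2-Eb1 had 0.46 in microglia and -1.83 in monocyte-derived cells (interaction 2.29 ± 0.17, adjusted p = 8.78e-08 in edgeR), and Ciita 0.70 and -0.67 (1.38 ± 0.19, adjusted p = 0.000199). Sall1 had 0.45 in microglia and 3.30 in monocyte-derived cells (-2.85 ± 0.44, adjusted p = 0.00115), Gpnmb 0.23 and 0.97 (-0.74 ± 0.20, adjusted p = 0.024), and Gata2 -0.93 and 0.81 (-1.74 ± 0.40, adjusted p = 0.0247). Left out in turn, single libraries ended the interaction call for Gpnmb without LL-MG 3 (0.0773) and for Gata2 without LL-MG 2 or LL-MG 3 (0.0581 to 0.062). Among the 8 loci it also ended for Rab12 without LL-MG 3 (0.0581), Aph1b without LL-MG 1, LL-MG 2, LL-MG 3, MG 2 or MG 3 (0.061 to 0.13), Slc31a2 without LL-MG 1, LL-MG 3 or MG 3 (0.0696 to 0.159) and Nod1 without LL-MG 1, LL-MG 2 or MG 2 (0.0529 to 0.0977). Without LL-MG 1, 2 or 3 it called 5228, 5300 and 4786 regions and 782, 713 and 812 loci. Without MG 1 it called 17816 regions and 3462 loci, and without MG 3 819 loci. With MG 1 as the only MG library the interaction called 4844 regions and 958 loci. Plin2, Abca1 and Abcg1 did not pass this test (-0.07 ± 0.17, -0.26 ± 0.16 and 0.24 ± 0.17, adjusted p = 0.852, 0.348 and 0.417 in edgeR), which does not show that they respond alike. The interaction passed at Abca1 without MG 2 (adjusted p = 0.0267) and at Abcg1 without MG 1 (0.0373).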

How the data were processed

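ATAC-seq libraries were made from nuclei of FACS-sorted cells with in-house Tn5, 2 rounds of 9 PCR cycles and selection of fragments of 150 to 700 bp, per the labels' protocols. The deposited table holds whole-number counts per region for 12 libraries, made by the authors on the mm10 genome. BWA 0.7.17-r1188, SAMtools 1.10, Picard 2.12.0 and deepTools 3.5.1 are named in the submitters' processing notes, while the sources used here do not give the peak caller, how duplicates were treated or whether ends were shifted for Tn5. Region totals per library ran from 1162969 to 18938222 counts, and the LL-MG libraries had fewer counts than MG 2 and MG 3, which limits what can be called at low levels.

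The test on regions was that of edgeR 4.0.16 under R 4.3.3 (TMM scaling, filterByExpr, robust quasi-likelihood fit, 4 groups of 3 by column name, Benjamini-Hochberg over all tested regions). Gene loci are sums over regions that overlap a protein-coding span or 5 kb beside it in the RefSeq table of GRCm38.p6, in which 16300 of 21627 genes had a region, so neighbouring genes can share counts. The fit against MG 1 alone and the interaction of lineage and lipid load used the same model. The steps were also run on simulated counts, with the same spread in all libraries and none set apart as MG 1 is. That run cannot speak for calls that moved with the MG library used. Alternatives were RLE, total-count and loess scaling, no filter, DESeq2 1.42.0, limma-voom (limma 3.58.1), 6 libraries only, thinned libraries, each library left out, groups by titles, a replicate block, other definitions of a locus and, added after seeing the data, MG 2 or MG 3 alone and the number in the titles as a block.

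Named regions are those called in both fits, at 1 or more in absolute log2 fold change and without overlap of the libraries, up to 10 in each direction by p and 1 per nearest gene. Named loci follow the same rule without the minimum fold, up to 12 in each direction and with at most 50% of counts shared, and up to 3 called members of each of 29 lists were named along with a fixed set of markers. Some genes that these rules name are not reported here. The members, lists and fixed genes were chosen with earlier results of these data known.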

Additional observations from a re-analysis of the deposited data

Results flagged for a closer look

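The results below are listed because the lipid-load difference in microglia (LL-MG over MG) differed from that in monocyte-derived macrophages (LL-MDM over MDM) at an adjusted p under 0.05 in edgeR's interaction test. Many of them were named for their LL-MG over MG difference, which is a part of that contrast. Each value is the log2 difference between the 2 lineages, and a positive value means a larger LL-MG over MG difference. Among gene loci it was H2-Eb1 2.29, H2-Aa 2.21, H2-DMb1 1.72, Ciita 1.38, Blk 1.29, Irf4 1.24, Col27a1 1.16 and Il12b 0.97. Next in size came Bst2 0.95, Gfap 0.82, Bmp8a 0.81, Slc1a2 0.76, Itgax 0.71, Slc7a11 0.68, Xcr1 0.64 and Rab12 0.62. Smaller positive values were those of Phldb1 0.61, Zdhhc18 0.60, Nr1h3 0.50, Aph1b 0.49, Nod1 0.45 and Slc31a2 0.44. Negative values among gene loci were Gzmb -4.97, Sall1 -2.85, Gata2 -1.74, Acsl4 -0.89 and Tmem119 -0.85, followed by Gpnmb -0.74, Ccl4 -0.63, Timp2 -0.56 and Cd63 -0.50. Of the named regions, those in or near Nr1h3 1.17 and Ifitm10 0.87 were positive, and those in or near Zfp704 -10.90, Dnajb8 -7.17, Noxa1 -5.94, Epg5 -5.87, Tns3 -5.57 and Tbx21 -4.24 were negative. The regions near Epg5, Zfp704 and Tns3 hold 0 to 2 counts over the LL-MG libraries, so their fitted values depend on the prior count. With 1 microglia library left out in turn, the interaction at the region in Ifitm10 was called in 2 of 6 fits (adjusted p up to 0.115 in edgeR), at that near Dnajb8 in 2 of 6 (up to 0.0847) and at that in Tbx21 in 4 of 6 (up to 0.0518), and at those in or near Nr1h3, Zfp704, Noxa1, Epg5 and Tns3 in all 6.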

How the results depend on the processing

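The number of calls moved with the libraries used more than with the scaling. The 9502 regions called became 6294 in DESeq2, 6158 in limma-voom, 1851 with the 6 microglia libraries only, 2514 with all libraries thinned to the smallest total, 42 against MG 1, 26909 against MG 2 and 3029 to 22310 with 1 microglia library left out. With the number in the titles as a block edgeR called 0 regions (11469 at an unadjusted p under 0.05) and 0 loci (2986), and 6299 regions and 949 loci in the interaction. In that block 546 alone occurs in both LL-MG and MG, which limits what it can call between them. The 2844 gene loci became 0 with the 6 libraries only in edgeR (4196 at an unadjusted p under 0.05), 1233 when thinned, 1144 with groups by the titles, 16 against MG 1, 6397 against MG 2, 1449 with start regions only and 998 to 5911 with 1 library left out. The 8467 regions of the interaction became 1416 when thinned, 0 with groups by the titles in edgeR (429 at an unadjusted p under 0.05), 4844 with MG 1 alone, 20469 with MG 2 alone and 4786 to 17816 with 1 library left out. The 1356 loci of the interaction became 541 when thinned, 0 with groups by the titles (43 at an unadjusted p under 0.05), 4172 and 2228 with MG 2 or MG 3 alone, 361 with start regions only and 713 to 3462 with 1 library left out. Against MG 1 alone the 42 regions became 1 in DESeq2, 8 in limma-voom and 27 to 33 with 1 LL-MG library left out, and the 16 loci 22 in DESeq2, 5 in limma-voom and 6 to 8 with 1 LL-MG library left out. Thinning shows what depth limits, and a left-out library also changes how many regions pass the filter; other causes were not tested.

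The LL-MG and MG libraries of a numbered set, paired by column number, did not deviate together, with correlations of 0.0756, -0.00248 and 0.0495. With a replicate block over those sets edgeR called 8702 regions and 2585 gene loci, and 7595 regions and 1187 loci in the interaction.

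With groups taken from the titles the log2 fold change took the opposite sign in regions in or near Nr1h3 -0.91, Rab7 -0.81, Epg5 0.39, Tbx21 2.78, Zfp704 1.99, Noxa1 2.14, Car8 6.20, Gm46963 0.60, Runx1 2.93 and Dnajb8 5.14, and at the loci Aph1b -0.20, Slc31a2 -0.29, Slc37a2 -0.11, Crybb1 0.088, Ccr2 0.26, Ahnak -0.87, Lrp1 -0.082, Acsl4 0.24, Nr1h3 -0.42, Apoc4 -0.38 and Abca1 -0.28. It also turned at Lss 0.11, Mvd -0.035, Fdft1 -0.15, Mitf -0.12, Arg1 -0.41, Ccl4 1.17, Il12b -0.23, Bst2 -0.40, Rsad2 -0.31, Ciita -0.40, H2-Eb1 -1.34, H2-DMb1 -1.31, Vsir -0.078 and Thbs1 -0.71, and at Mmp14 -1.04, Slc7a11 -0.80, Jund 0.28, Mki67 -0.55, Mcm5 0.027, Slc1a2 -0.29, Gfap -0.008, Nkg7 0.33, Gzmb 2.87, Irf4 -0.54, Ms4a2 1.93, Cpa3 2.63, Hdc 0.90, Cd9 0.98 and Gata2 1.91. With start regions only it turned at Cx3cr1 -0.13, Crybb1 0.37, Ppard -0.15, Galc 0.058, Mmp14 -0.031 and Batf -0.17, and against MG 1 alone at Kit, to 0.023. RLE scaling and dropping the low-count filter changed no call of a named region or locus. The groups by titles set microglia columns against monocyte-derived ones, so the signs that turned there mix lineage with lipid load.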
